A study of Mus musculus with 24 samples.

Results

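The 8 libraries described here were made from primary cortical astrocytes that had received 0.1 Gy X-rays, 4 of them harvested 6 h and 4 harvested 24 h after exposure, and they were chosen by the dose and time on their labels from the 24 libraries of the series. The question was how the transcripts of astrocytes changed between these times after the low dose, and all genes were followed. The cells came from the cortex of wild type C57BL/6J mouse embryos late in gestation and were grown as plated cultures without further treatment. Replicates came from separate isolations, and all cells were irradiated 3 days after seeding at 1 Gy per minute from a 200 kV source at room temperature, and all groups shared these conditions. The other 16 libraries of the series held mock-irradiated cells (0 Gy) and cells given 2 Gy, with 4 libraries at each dose and time, and they enter below only where a time course after 0.1 Gy is set against theirs. Such cultures are a model of astrocytes of the embryonic brain, not of the mature tissue, and they may hold other cells that grow out of cortex. The paper reports that these astrocytes proliferated slowly.

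Several programmes of gene expression are known to change on this time scale in cultured cells. Immediate early genes and cytokine genes answer a stimulus quickly and are shut off by their own feedback genes. Cholesterol synthesis is run by the transcription factor SREBP-2, which the protein encoded by *Insig1* holds back when sterols are plentiful, and astrocytes are the main makers of cholesterol in the brain. The circadian clock makes its repressors and activators peak at different hours of the day, and FoxO factors switch on genes of growth limitation when growth signals fade.

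Each library held between 19437584 and 37039966 counts, which are whole reads or fragments assigned to genes. Levels are given as CPM, the count of a gene relative to the size of its library, after TMM normalization, a scaling that sets aside the few genes that take a changing share of the reads, and the values of a gene are listed in the order of the replicate numbers 1 to 4. A gene passed at an adjusted p under 0.05 in edgeR, and a log2 fold change is that of 24 h over 6 h, so that a negative value means less at 24 h. The astrocyte markers *Slc1a3*, *Glul*, *Gfap*, *Aqp4* and *Aldh1l1* each had at least 5258 counts in every library. Other markers of the astrocyte list were near absent, the lowest library holding 0 counts of Gjb6, 1 of Slc7a10, 4 each of *Slc6a11* and *Agt* and 35 of *S100b*, while the rest of the list had at least 941. Summed CPM of 14 microglia markers was 3481, 375.2, 2876 and 3036 at 6 h and 2641, 385, 2620 and 3053 at 24 h, so that replicate 2 held far fewer microglial transcripts than the others at both times. Fewer cells of a type and less RNA per cell cannot be told apart in such bulk samples. Replicate 2 also stood apart from the others at both times on the first principal component of all tested genes, which carried 45.4% of the variance, and the second component with 29.8% separated the times.

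**Figure D1:**
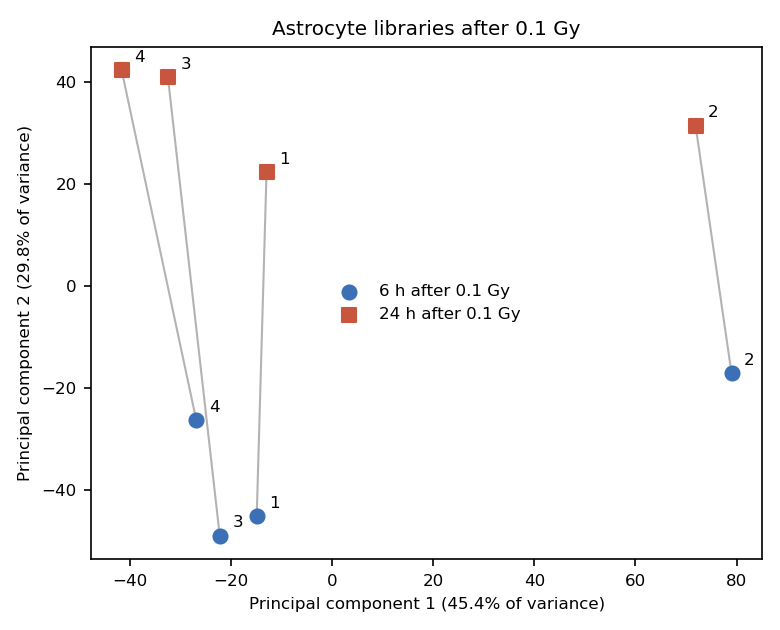
The first 2 principal components of log2 CPM in the 8 libraries after 0.1 Gy, with the share of variance on each axis, the replicate number beside each point and lines between libraries of the same number. Both libraries of replicate 2 lie above 70 on component 1 and the other 6 lie below 0, while all 6 h libraries lie below 0 and all 24 h libraries above 0 on component 2.

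From 6 h to 24 h, 743 of the 16250 genes tested rose, which is 4.57%, and 866 fell, which is 5.33%. At least 2-fold changes among them, an absolute log2 fold change of 1 or more, were 261 rises (1.61%) and 363 falls (2.23%). The median log2 fold change was 0.84 among the genes that rose and -0.90 among those that fell, and -0.0082 over all genes tested. Without a scaling other than library size, 1034 genes rose and 654 fell, so the share of rises among the calls went from 46.2% to 61.3%. Rises also outnumbered falls with a GC and length correction (1203 and 1055), in a fit of all 24 libraries (1102 and 1048) and without replicate 2 at 6 h (818 and 691). All 24 h libraries lay above all 6 h libraries for 1443 of the genes tested and below them for 1611. Replicates of 1 number shared their deviations at both times, and with the number as a block 1914 genes (11.8%) rose and 2267 (14.0%) fell, among them all 1609 genes of the fit without a block. Leaving out 1 library gave between 534 calls (without replicate 1 at 6 h) and 1890 calls (without replicate 2 at 24 h). The count also fell short by over 1.5 times without replicate 3 or 4 at 6 h (604 and 1004) and without replicate 3 or 4 at 24 h (739 and 553). With 1 replicate number left out at both times, which leaves 3 libraries against 3, there were 142 calls without replicate 1, 85 without replicate 3 and 175 without replicate 4, and 2386 without replicate 2 (1167 rises and 1219 falls). Those fits have no block. Of 186 genes followed by name, they lost the calls of 129, 4, 139 and 110 without replicate 1, 2, 3 and 4. In the blocked fit the same omissions lost the calls of 2, 3, 0 and 11.

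**Figure D2:**
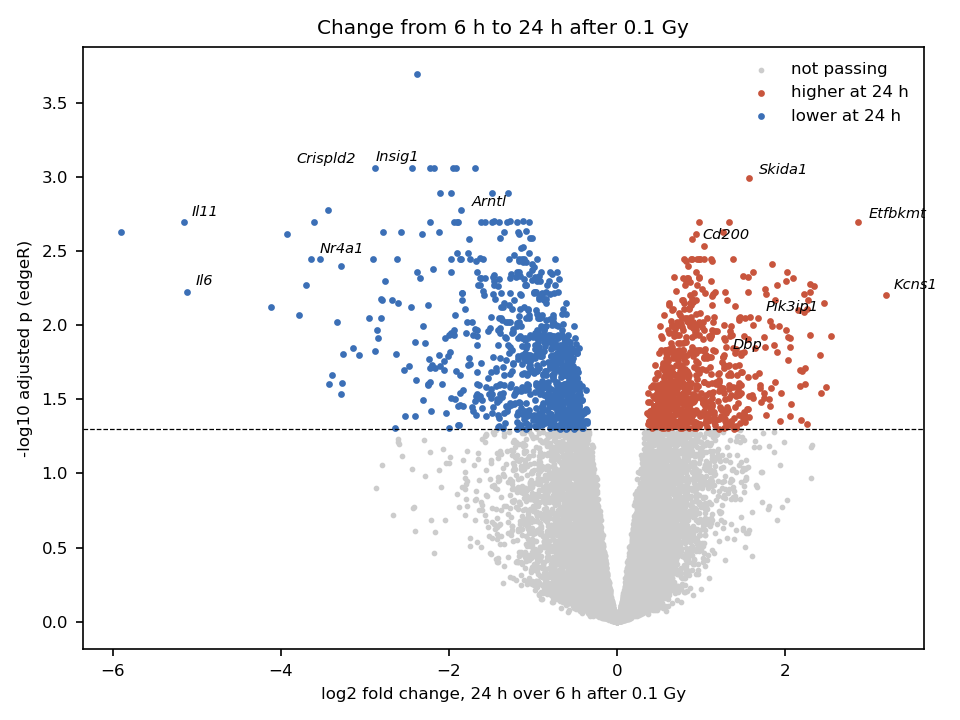
Log2 fold change from 6 h to 24 h after 0.1 Gy (x axis) against -log10 of edgeR's adjusted p (y axis), 1 point per gene tested, with the dashed line at an adjusted p of 0.05. Il11 and Il6 are among the points farthest to the left, while Kcns1 and Etfbkmt lie farthest to the right.

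Genes of cholesterol synthesis and uptake fell together. Of the 24 genes tested 22 fell and none rose, with a median log2 fold change of -1.91 beside -0.0082 over all genes, and 18 of them fell at least 2-fold. *Insig1*, the sterol-sensing brake of the pathway, measured 457, 357, 311 and 345 CPM at 6 h and 74.7, 102, 69.1 and 78.95 CPM at 24 h (log2 fold change -2.18 ± 0.17 SE, edgeR adjusted p = 8.66e-04). The times were fully apart, the lowest 6 h library lying more than 3-fold above the highest 24 h library. *Hmgcs1*, a synthase at the start of the pathway, measured 1464, 1208, 1021 and 1076 CPM at 6 h and 273, 342, 167 and 241 CPM at 24 h (log2 fold change -2.22 ± 0.23 SE, edgeR adjusted p = 0.00203). Replicate 2 was the highest of the 24 h libraries of *Hmgcs1* and still lay far below the lowest 6 h library.

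Later steps of the pathway changed by differing amounts. *Idi1*, the isomerase of the isoprenoid units, had the lowest fold change of the list and measured 224, 165, 147 and 128 CPM at 6 h and 25.7, 36.4, 14.2 and 20.2 CPM at 24 h (log2 fold change -2.78 ± 0.30 SE, edgeR adjusted p = 0.00236). *Mvd*, which makes isopentenyl diphosphate, fell from 72.7 ± 13.7 to 13.3 ± 2.56 CPM (mean ± SD, n = 4 each), and its 24 h library 1 measured 9.52 CPM beside 14.4 to 14.9 in the others. Of the enzymes that close and trim the sterol rings, *Lss* fell from 196 ± 44.9 to 42.03 ± 4.92 CPM, *Cyp51* from 464 ± 84.6 to 118 ± 18.53 CPM, *Msmo1* from 453 ± 77.2 to 117 ± 8.73 CPM and *Dhcr7* from 85.8 ± 13.2 to 22.8 ± 2.91 CPM (mean ± SD, n = 4 each). *Stard4*, a carrier of cholesterol inside the cell, had a log2 fold change of -2.12 ± 0.22 (SE). Smaller falls were found for *Sqle* (-0.99), *Nsdhl* (-0.85) and *Mvk* (-0.82) and for *Srebf2*, the gene of SREBP-2 itself (-0.99, edgeR adjusted p = 0.00407). *Ebp* (-0.16) and *Tm7sf2* (-0.15) did not pass. All 22 genes passed also in the blocked fit and with each of the 8 libraries left out in turn. With 1 replicate number left out at both times 16 passed without replicate 1, 22 without replicate 2, 15 without replicate 3 and 17 without replicate 4. In the blocked fit all 22 passed in each of these cases. Exons of *Fdft1* overlap those of *Ctsb* on the other strand over 26.8% of their length, and since no source used here says whether strand entered the counting, the value of *Fdft1* is less certain than the rest.

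The list also fell in cells that were not irradiated and in cells given 2 Gy. In mock-irradiated cells 22 of the 24 genes fell with a median log2 fold change of -1.78, and after 2 Gy 21 fell with a median of -1.97. *Insig1* had a log2 fold change of -2.18 after 0.1 Gy, -2.14 in mock-irradiated cells and -2.05 after 2 Gy. *Idi1* had -2.78, -2.11 and -2.84. In the test of the difference in time change, no gene of the list passed against mock-irradiated cells or against 2 Gy, and the median of the difference was -0.0034 and -0.0088.

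**Figure D3:**
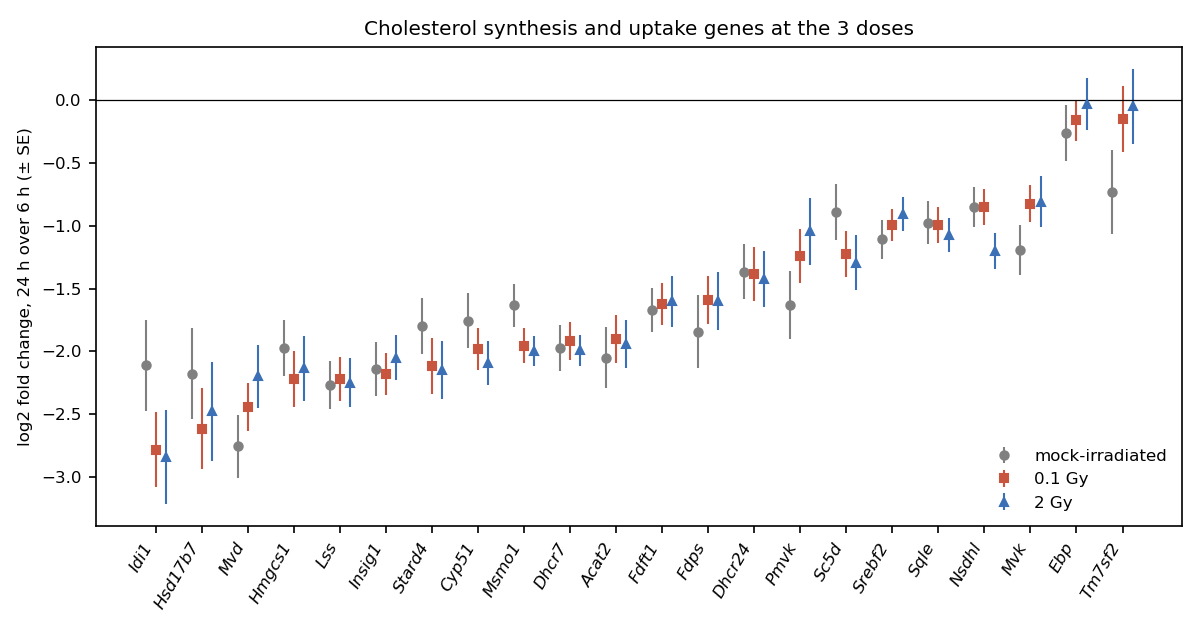
Log2 fold change from 6 h to 24 h with its standard error (y axis) for 22 of the 24 genes tested in the cholesterol list (x axis), 20 that fell and 2 that did not pass after 0.1 Gy, each fitted on the 8 libraries of its own dose, for mock-irradiated cells (grey), 0.1 Gy (red) and 2 Gy (blue). All points lie below 0, and after 0.1 Gy Idi1 lies lowest and Ebp and Tm7sf2 lie nearest to 0.

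The promoters of this list were searched for motifs linked to SREBP-2. The list is a pathway known to be run by that factor, so the matches describe the list and are no independent support. RefSeq windows of 300 bases around the start (250 before, 50 after, build GRCm38.p6) were matched for 17 of the 24 genes, as 20 windows, and 16 of these windows held CCAAT on either strand, the box bound by NF-Y, a usual partner of SREBP-2. That is 80% of the windows, beside 37.4% of all 32851 windows. The matches include *Ebp* and *Tm7sf2*, which did not pass, and the windows of all genes were not limited to genes tested here. The core of a sterol regulatory element, TCACNCCAC on either strand, was found in 1 of the 20 windows (5%), that of *Hmgcs1*, beside 1.24% of all windows. A match is a string of letters and no shown binding. The 250 bases before the start are printed for 4 genes that fell steeply, with both motifs in capitals, where ATTGG is CCAAT on the other strand. They lie at chr13:119690101-119690350, plus strand for *Hmgcs1*, at chr5:28071162-28071411, plus strand for *Insig1*, at chr13:8885356-8885605, plus strand for *Idi1* and at chr10:76531355-76531604, plus strand for *Lss*.
Hmgcs1: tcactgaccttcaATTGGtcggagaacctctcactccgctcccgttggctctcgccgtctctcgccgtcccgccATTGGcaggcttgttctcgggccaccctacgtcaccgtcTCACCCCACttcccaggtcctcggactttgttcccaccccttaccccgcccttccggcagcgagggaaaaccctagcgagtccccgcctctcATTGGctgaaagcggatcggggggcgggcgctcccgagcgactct
Insig1: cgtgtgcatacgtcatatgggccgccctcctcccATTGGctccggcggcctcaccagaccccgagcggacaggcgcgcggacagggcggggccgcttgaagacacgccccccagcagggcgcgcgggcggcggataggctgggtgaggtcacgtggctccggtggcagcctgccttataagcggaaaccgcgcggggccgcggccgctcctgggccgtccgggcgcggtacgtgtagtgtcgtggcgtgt
Idi1: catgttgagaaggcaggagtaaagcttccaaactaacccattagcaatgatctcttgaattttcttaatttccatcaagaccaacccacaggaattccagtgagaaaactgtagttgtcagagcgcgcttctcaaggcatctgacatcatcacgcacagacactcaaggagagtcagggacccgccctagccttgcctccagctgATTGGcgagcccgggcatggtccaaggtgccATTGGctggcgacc
Lss: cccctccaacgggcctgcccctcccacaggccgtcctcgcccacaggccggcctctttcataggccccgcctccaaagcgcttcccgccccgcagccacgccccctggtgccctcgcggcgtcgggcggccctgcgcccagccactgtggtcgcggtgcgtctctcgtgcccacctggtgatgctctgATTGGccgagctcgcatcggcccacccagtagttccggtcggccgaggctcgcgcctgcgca
*Hmgcs1* holds 3 CCAAT boxes and the sterol element, which begins 137 bases before the start. *Idi1* holds 2 CCAAT boxes within 45 bases of the start.

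Fatty acid synthesis changed in part. Of 12 genes tested 5 fell and none rose, with a median of -0.56, and 10 fell in the blocked fit. *Fasn*, which builds palmitate, measured 697, 553, 547 and 678 CPM at 6 h and 171, 217, 187 and 192 CPM at 24 h (log2 fold change -1.69 ± 0.13 SE, edgeR adjusted p = 8.66e-04). *Acly*, which makes the cytosolic acetyl-CoA for both pathways, measured 519.8, 419.9, 434 and 493 CPM at 6 h and 205, 198, 177 and 181 CPM at 24 h (log2 fold change -1.29 ± 0.11 SE, edgeR adjusted p = 0.00128). No 24 h library of either gene reached the lowest 6 h library. *Elovl6* and *Elovl5*, which lengthen fatty acids, had log2 fold changes of -1.47 and -0.57, and *Acsl3*, which activates them, -1.11. *Acaca* (-0.57), *Scd1* (-0.52), *Scd2* (-0.54) and *Srebf1* (0.33), the gene of the factor SREBP-1, did not pass.

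Cytokine and NF-kB target genes gave the largest fold changes of all lists. Of 34 genes tested 12 fell and none rose, with a median of -0.72, and the blocked fit had 20 falls and 1 rise. *Il11*, a cytokine of the IL-6 family, measured 46.3, 40.6, 124 and 39.7 CPM at 6 h and 0.947, 3.01, 1.70 and 1.26 CPM at 24 h (log2 fold change -5.16 ± 0.53 SE, edgeR adjusted p = 0.00203). *Il6* itself measured 22.1, 4.81, 38.1 and 5.96 CPM at 6 h and 0.368, 0.645, 0.439 and 0.559 CPM at 24 h (log2 fold change -5.12 ± 0.74 SE, edgeR adjusted p = 0.00594). The 6 h libraries of *Il6* spread widely, replicates 1 and 3 being several-fold above replicates 2 and 4, yet none overlapped the 24 h libraries. *Ccl7*, a monocyte chemokine, measured 30.2, 9.25, 24.8 and 9.65 CPM at 6 h and 1.74, 0.788, 0.981 and 2.20 CPM at 24 h (log2 fold change -3.70 ± 0.52 SE, edgeR adjusted p = 0.00537). *Ccl2*, its neighbour in the same family, measured 80.7, 26.6, 84.05 and 33.99 CPM at 6 h and 8.52, 4.62, 10.2 and 19.6 CPM at 24 h (log2 fold change -2.39 ± 0.51 SE, edgeR adjusted p = 0.0234). For *Ccl2* the highest 24 h library, replicate 4, came close to the lowest 6 h library, and edgeR's adjusted p rose to 0.0741 without replicate 1 at 6 h. *Ptgs2*, the inducible cyclooxygenase, measured 272, 155, 259 and 63.7 CPM at 6 h and 30.1, 24.4, 8.11 and 12.1 CPM at 24 h (log2 fold change -3.33 ± 0.55 SE, edgeR adjusted p = 0.00958). *Lif*, a glial growth cytokine, measured 78.3, 112, 137 and 67.9 CPM at 6 h and 20.98, 40.01, 24.9 and 13.04 CPM at 24 h (log2 fold change -1.996 ± 0.35 SE, edgeR adjusted p = 0.0116). In both genes all 24 h libraries lay below all 6 h libraries. *Cxcl1*, a neutrophil chemokine, was present at low levels, 2.81, 1.48, 1.64 and 1.45 CPM at 6 h and 0.210, 0.466, 0.542 and 0.524 CPM at 24 h (log2 fold change -2.04 ± 0.37 SE, edgeR adjusted p = 0.0123).

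Feedback genes of NF-kB had smaller falls than the genes of the list described above, a difference that was not tested. *Nfkbia*, which encodes the inhibitor IkB-alpha, measured 122, 66.5, 123 and 92.2 CPM at 6 h and 46.5, 32.2, 55.4 and 67.9 CPM at 24 h (log2 fold change -0.9987 ± 0.26 SE, edgeR adjusted p = 0.0437), and its 24 h library 4 overlapped the 6 h libraries. *Tnfaip3* (log2 fold change -1.06), *Nfkbiz* (-1.36) and *Nfkb2* (-0.75) also fell. *Rela* (0.086) and *Nfkb1* (-0.15), which encode the main subunits, and *Icam1* (0.10), *Tnf* (-0.66) and *Il1b* (-0.17) did not pass. Of the 12 falls, 6 passed with each library left out in turn, namely *Il6*, *Il11*, *Lif*, *Ccl7*, *Cxcl1* and *Ptgs2*, while *Nfkbia* reached an edgeR adjusted p of 0.136 without replicate 1 at 6 h. Without replicate 2 at both times, the replicate low in microglial transcripts, 16 genes fell and 1 rose. Of the 12 falls only 1, that of *Il11*, passed without replicate 1 at both times and only it passed without replicate 3, and 6 passed without replicate 4. The log2 fold change of *Il6* was then -4.87, -4.36 and -5.47 with an edgeR adjusted p of 0.0695, 0.0585 and 0.0387. In the blocked fit with the same omissions only the call of *Cxcl10* was lost, without replicate 1. In mock-irradiated cells 10 genes of the list fell and after 2 Gy 11, and *Il6* had log2 fold changes of -4.09 and -4.54 there. Of 31 interferon-stimulated genes 0 passed in edgeR, DESeq2 or voom and 0 had an unadjusted p under 0.05, with a median of 0.019, and 1 rise and 4 falls in the blocked fit.

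The AP-1 element TGANTCA, searched on both strands, was in 8 of 34 promoter windows of the cytokine list (23.5%) beside 7.81% of all windows. Among them were *Il6*, *Il11* and *Lif*, and 29 of the 34 genes had a window. The 250 bases before the start of *Il11* (chr7:4778142-4778391, minus strand, the second of its windows) and *Lif* (chr11:4257318-4257567, plus strand) are printed with the element in capitals.
Il11: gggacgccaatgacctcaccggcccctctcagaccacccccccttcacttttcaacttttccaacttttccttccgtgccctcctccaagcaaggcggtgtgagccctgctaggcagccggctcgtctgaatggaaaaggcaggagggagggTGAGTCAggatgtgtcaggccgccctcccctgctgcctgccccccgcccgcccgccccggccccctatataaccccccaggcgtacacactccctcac
Lif: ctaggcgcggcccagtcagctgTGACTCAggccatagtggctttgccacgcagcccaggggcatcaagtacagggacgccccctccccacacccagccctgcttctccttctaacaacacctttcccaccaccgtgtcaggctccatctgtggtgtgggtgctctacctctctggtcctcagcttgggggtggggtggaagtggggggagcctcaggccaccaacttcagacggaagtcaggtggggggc
The element begins 98 bases before the start in *Il11* and 228 bases before it in *Lif*.

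Immediate early genes fell or did not pass. Of 35 genes tested 14 fell and none rose, with a median of -0.69, and the blocked fit had 22 falls and 2 rises. *Nr4a1*, an orphan nuclear receptor induced by many stimuli, measured 95.2, 87.2, 59.5 and 25.6 CPM at 6 h and 5.10, 7.81, 5.52 and 2.94 CPM at 24 h (log2 fold change -3.64 ± 0.45 SE, edgeR adjusted p = 0.00358). *Nr4a3*, of the same family, measured 107, 46.02, 67.1 and 31.7 CPM at 6 h and 6.63, 4.83, 4.83 and 4.41 CPM at 24 h (log2 fold change -3.61 ± 0.37 SE, edgeR adjusted p = 0.00203). Within each time replicate 4 was the lowest for both genes, and the groups did not overlap. *Fosl1*, an AP-1 subunit, measured 35.6, 66.8, 50.2 and 21.3 CPM at 6 h and 7.05, 16.1, 8.88 and 4.72 CPM at 24 h (log2 fold change -2.24 ± 0.44 SE, edgeR adjusted p = 0.0169). *Ier3*, an early response gene of survival signalling, measured 146, 101, 227 and 109 CPM at 6 h and 32.9, 34.2, 38.4 and 22.5 CPM at 24 h (log2 fold change -2.19 ± 0.28 SE, edgeR adjusted p = 0.00419). *Klf4*, a zinc finger factor, measured 37.5, 62.4, 48.2 and 21.6 CPM at 6 h and 13.9, 24.1, 13.9 and 8.39 CPM at 24 h (log2 fold change -1.49 ± 0.38 SE, edgeR adjusted p = 0.0393), and its groups overlapped because replicate 2 at 24 h exceeded replicate 4 at 6 h. *Maff* (-1.66), *Dusp5* (-1.60), a phosphatase of ERK, and *Klf10* (-1.17) fell as well. *Myc* measured 27.6, 26.1, 33.1 and 23.5 CPM at 6 h and 19.6, 16.5, 17.5 and 16.9 CPM at 24 h (log2 fold change -0.65 ± 0.14 SE, edgeR adjusted p = 0.0213). The classical members *Fos* (-0.33), *Jun* (-0.0046), *Egr1* (0.55) and *Dusp1* (-0.039) did not pass. Without replicate 1, 3 or 4 at both times 4, 3 and 7 of the 14 calls passed, while in the blocked fit all 14 passed in these cases. With each library left out in turn 7 held, those of *Nr4a1*, *Nr4a3*, *Ier3*, *Fosl2*, *Klf10*, *Dusp5* and *Maff*, and *Fosl1* reached an edgeR adjusted p of 0.0549 without replicate 3 at 24 h. The AP-1 element was in 0 of the 34 windows of this list, and the CRE, TGACGTCA, was in 2 of them (5.88%) beside 1.79% of all windows.

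**Figure D4:**
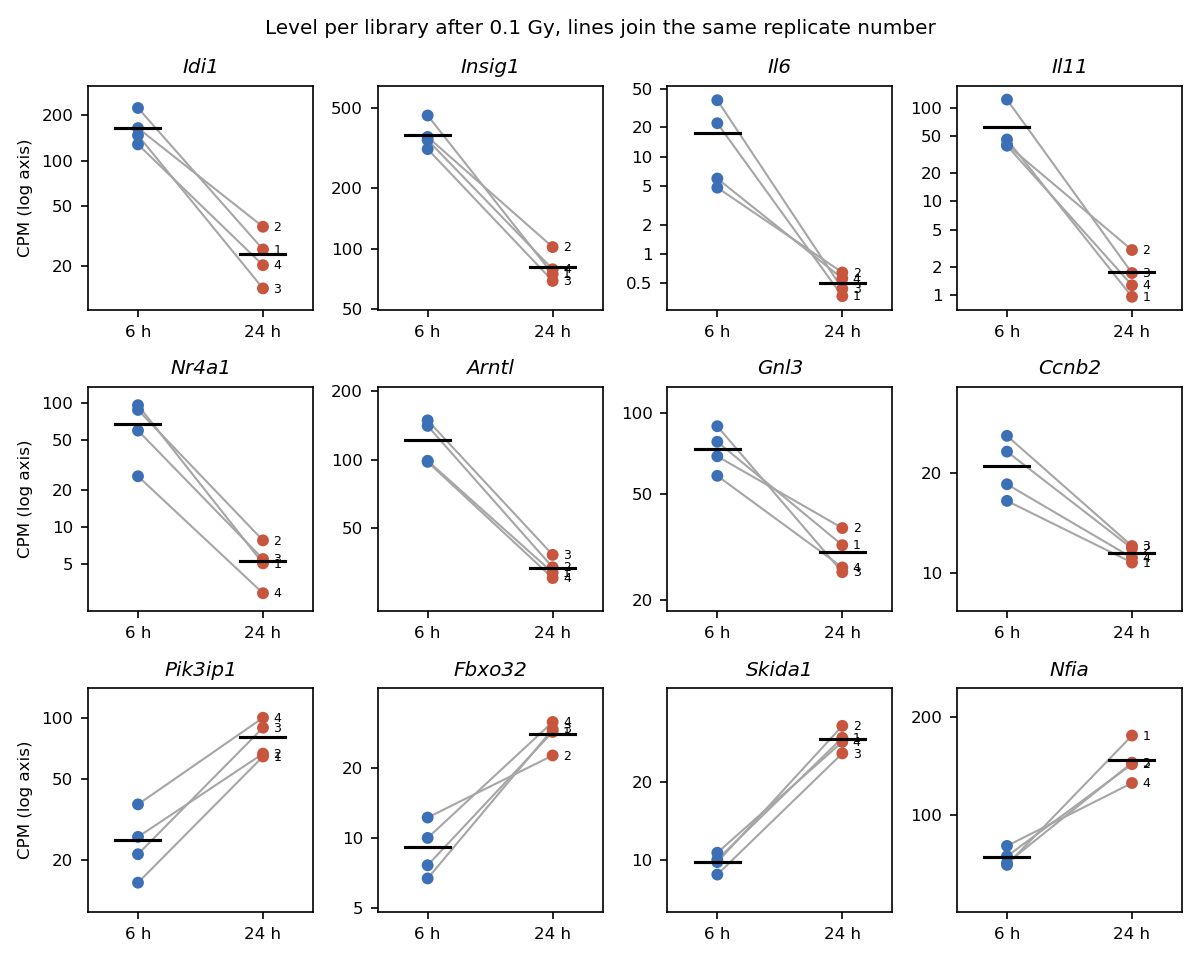
CPM on log axes at 6 h and 24 h after 0.1 Gy for 12 genes, with 1 point per library, lines between libraries of the same replicate number and a bar at the mean of 4 libraries. The lines of Idi1, Insig1, Il6, Il11, Nr4a1, Arntl, Gnl3 and Ccnb2 all go down and those of Pik3ip1, Fbxo32, Skida1 and Nfia all go up, with no overlap between the times.

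*Clock* genes moved in both directions. Of 20 genes tested 3 rose and 4 fell, beside 4.57% rises and 5.33% falls over all genes. In the blocked fit 7 rose and 7 fell, beside 11.8% and 14.0%. *Arntl*, which encodes the activator BMAL1, measured 98.9, 141, 149 and 97.8 CPM at 6 h and 32.03, 33.8, 38.3 and 30.3 CPM at 24 h (log2 fold change -1.85 ± 0.17 SE, edgeR adjusted p = 0.00167). *Dbp*, an output gene driven by the activator, measured 21.9, 26.5, 15.02 and 36.7 CPM at 6 h and 57.01, 56.02, 57.8 and 71.99 CPM at 24 h (log2 fold change 1.28 ± 0.25 SE, edgeR adjusted p = 0.0158). The times did not overlap for either gene. *Per2*, a repressor of the clock, measured 20.7, 26.1, 19.9 and 28 CPM at 6 h and 37.4, 36.4, 34.8 and 35.2 CPM at 24 h (log2 fold change 0.60 ± 0.13 SE, edgeR adjusted p = 0.0265). *Per3* measured 17.02, 21.4, 13.9 and 20.4 CPM at 6 h and 29.3, 30.98, 23.9 and 28.2 CPM at 24 h (log2 fold change 0.63 ± 0.16 SE, edgeR adjusted p = 0.0413). *Ciart*, another repressor, measured 11.2, 9.01, 10.5 and 10.9 CPM at 6 h and 3.58, 5.98, 3.51 and 4.16 CPM at 24 h (log2 fold change -1.27 ± 0.21 SE, edgeR adjusted p = 0.00958). *Cry1* (-0.76) and *Bhlhe40* (-1.15) fell, while *Clock* (-0.033), *Per1* (-0.28), *Nr1d1* (-0.24) and *Nr1d2* (0.72) did not pass. The calls of *Arntl*, *Ciart* and *Bhlhe40* held with each library left out, and that of *Per3* was lost in 7 of 8 cases with 1 library left out, with an edgeR adjusted p of up to 0.112. Exons of *Dbp* overlap *Sphk2* on the other strand over 18% of their length, and *Sphk2* itself had a log2 fold change of -0.12, which did not pass. In mock-irradiated cells *Arntl* had -1.72, *Per2* 0.81 and *Dbp* 0.85, the last with an edgeR adjusted p of 0.0980.

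The E-box CACGTG, where the clock activator binds, was in 6 of 23 promoter windows of the clock list (26.1%) beside 7.15% of all windows. They belong to *Ciart* and *Cry1*, which fell, and to *Bhlhe41*, *Per1* and *Tef*, which did not pass. The promoter of *Ciart* (chr3:95882229-95882478, minus strand) held 3 of them, which begin 116, 58 and 44 bases before the start and are in capitals.
Ciart: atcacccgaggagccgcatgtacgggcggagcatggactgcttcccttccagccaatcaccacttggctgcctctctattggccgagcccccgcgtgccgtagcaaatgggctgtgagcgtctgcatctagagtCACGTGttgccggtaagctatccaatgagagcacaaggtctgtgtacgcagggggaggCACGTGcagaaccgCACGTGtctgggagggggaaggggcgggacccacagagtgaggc
No window of *Arntl*, *Dbp* or *Per3* held these letters, which says nothing of elements farther away.

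Genes of ribosome biogenesis fell, and those of ribosomal proteins did not pass. Of 28 biogenesis genes 15 fell and none rose, and all 28 fitted log2 fold changes were negative, with a median of -0.55. *Gnl3*, the nucleolar GTPase nucleostemin, measured 77.99, 68.8, 89.1 and 58.2 CPM at 6 h and 32.1, 37.2, 25.5 and 26.5 CPM at 24 h (log2 fold change -1.28 ± 0.17 SE, edgeR adjusted p = 0.00483). *Nop56*, a core protein of box C/D particles that modify ribosomal RNA, measured 91.7, 88.3, 96.8 and 67.9 CPM at 6 h and 40.8, 49, 44.7 and 44.3 CPM at 24 h (log2 fold change -0.95 ± 0.13 SE, edgeR adjusted p = 0.00505). *Rrs1*, a factor of the large subunit, measured 79.1, 72.8, 66.03 and 68.1 CPM at 6 h and 31.7, 43.4, 38.1 and 37.7 CPM at 24 h (log2 fold change -0.92 ± 0.12 SE, edgeR adjusted p = 0.00470). The 6 h libraries of all these genes lay above all 24 h libraries. *Ppan* (-1.22), *Grwd1* (-1.01), *Nop2* (-0.97), *Polr1b* (-0.56), a subunit of RNA polymerase I, and *Nolc1* (-0.56) also fell, while *Npm1* (-0.17), *Ncl* (-0.27) and *Fbl* (-0.13) did not pass. The blocked fit had 18 falls. With each library left out in turn 9 of the 15 calls held, and without replicate 1, 3 or 4 at both times 3, 0 and 3 passed in edgeR. In the blocked fit *Noc2l* lost its call without replicate 1, 2 or 4, *Polr1b* and *Dkc1* lost theirs without replicate 4, and the others held. The E-box CACGTG was in 8 of 26 promoter windows of the list (30.8%) beside 7.15% of all windows, with 23 of the 28 genes matched. Of the 37 ribosomal protein genes 0 passed in edgeR with or without the block, in DESeq2 or in voom, 0 had an unadjusted p under 0.05, and their log2 fold changes lay between -0.19 and 0.21. In mock-irradiated cells 13 biogenesis genes fell and after 2 Gy 12.

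FoxO targets and genes of growth limitation were the list with the most rises. Of 26 genes tested 8 rose and 1 fell, with a median of 0.43, and 14 rose and 2 fell in the blocked fit. *Pik3ip1*, an inhibitor of PI3 kinase, measured 15.5, 25.9, 21.3 and 37.5 CPM at 6 h and 64.4, 66.5, 89.3 and 99.9 CPM at 24 h (log2 fold change 1.68 ± 0.27 SE, edgeR adjusted p = 0.0089). *Fbxo32*, a ubiquitin ligase of atrophy, measured 7.64, 12.3, 6.71 and 10.02 CPM at 6 h and 28.6, 22.7, 29.4 and 31.6 CPM at 24 h (log2 fold change 1.61 ± 0.21 SE, edgeR adjusted p = 0.00436). Each 24 h library of both genes lay above every 6 h library. *Klf15*, a factor of amino acid and glucose metabolism, measured 2.02, 3.08, 1.16 and 4.34 CPM at 6 h and 10.2, 6.52, 7.51 and 10.6 CPM at 24 h (log2 fold change 1.70 ± 0.38 SE, edgeR adjusted p = 0.0266). *Txnip*, which limits glucose uptake, measured 74.97, 45.5, 72.1 and 113 CPM at 6 h and 117, 168, 142 and 212 CPM at 24 h (log2 fold change 1.06 ± 0.27 SE, edgeR adjusted p = 0.0426). *Foxo1* itself went the other way and measured 106, 122, 139 and 107 CPM at 6 h and 93.6, 88.4, 80.8 and 73.4 CPM at 24 h (log2 fold change -0.50 ± 0.12 SE, edgeR adjusted p = 0.0380). *Sesn3* (0.83), *Gabarapl1* (0.82), an autophagy gene, *Pdk4* (0.80) and *Bnip3* (0.48) rose, while *Cdkn1b* (0.20), *Ccng2* (0.60), *Irs2* (0.19) and *Foxo3* (0.53) did not pass. Exons of *Gabarapl1*, *Bnip3* and *Txnip* overlap those of other genes on the opposite strand over 28.3%, 22.3% and 19.4% of their length. The calls of *Pik3ip1*, *Fbxo32* and *Gabarapl1* held with each library left out, and *Txnip* reached an edgeR adjusted p of 0.118 without replicate 4 at 24 h. Without replicate 1, 3 or 4 at both times 0, 0 and 2 of the 9 calls passed in edgeR. In the blocked fit *Foxo1* lost its call without replicate 2 or 4, *Bnip3* lost its call without replicate 4, and the others held. With library size alone as scaling the list had 8 rises and no fall. Mock-irradiated cells had 5 rises and 1 fall in the list, and cells given 2 Gy the same numbers.

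Of 41 genes of the unfolded protein and integrated stress responses 8 fell and none rose, with a median of -0.14, and 12 fell in the blocked fit. *Atf4*, the factor at the centre of the integrated response, measured 309.7, 238, 259.7 and 210.2 CPM at 6 h and 114, 116, 123 and 117 CPM at 24 h (log2 fold change -1.11 ± 0.13 SE, edgeR adjusted p = 0.00297). Its targets *Mthfd2*, a mitochondrial folate enzyme (-1.48 ± 0.15 (SE)), *Chac1*, which degrades glutathione (-1.496 ± 0.34 (SE)), and *Slc7a1*, an arginine transporter (-1.44), fell as well. *Xbp1*, a factor of the unfolded protein response, measured 122, 106, 155 and 135 CPM at 6 h and 56.9, 41.4, 53.3 and 65.3 CPM at 24 h (log2 fold change -1.26 ± 0.17 SE, edgeR adjusted p = 0.00449). The chaperones *Hspa5* (-0.59), *Hsp90b1* (-0.034) and *Calr* (-0.0046) and the targets *Asns* (-0.20), *Trib3* (-0.55) and *Ddit3* (-0.69) did not pass. With each library left out, 4 of the 8 calls held, those of *Atf4*, *Xbp1*, *Mthfd2* and *Herpud1*. Among 15 cytosolic heat shock genes *Bag3* (-0.95) and *Hspb1* (-0.94) fell and *Hspa8* (0.50) rose, with a median of 0.04, beside 4.57% rises and 5.33% falls over all genes, and 3 fell and 2 rose in the blocked fit, beside 14.0% and 11.8%. Of these calls only that of *Bag3* held with each library left out. Among 30 Nrf2 targets and antioxidant genes *Hmox1* (-0.85) fell and no other gene passed, with a median of -0.019, a share below that of falls over all genes (5.33%), and 4 fell and 2 rose in the blocked fit.

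Of 34 genes of glycolysis and the response to hypoxia 3 fell and 1 rose, beside 5.33% falls and 4.57% rises over all genes, with a median of 0.0096, and 5 fell and 1 rose in the blocked fit. *Slc2a1*, the glucose transporter GLUT1, measured 205, 216, 241 and 211 CPM at 6 h and 94.7, 77.3, 120.1 and 119.8 CPM at 24 h (log2 fold change -1.08 ± 0.15 SE, edgeR adjusted p = 0.00540). *Hk2*, the inducible hexokinase, measured 156, 135, 169 and 141 CPM at 6 h and 67.5, 74.5, 83.8 and 68.3 CPM at 24 h (log2 fold change -1.03 ± 0.11 SE, edgeR adjusted p = 0.00260). *Vegfa*, the vessel growth factor, measured 121, 167, 92.1 and 95.7 CPM at 6 h and 45.3, 87.5, 43.01 and 41.9 CPM at 24 h (log2 fold change -1.12 ± 0.29 SE, edgeR adjusted p = 0.0398), and its call was lost in 7 of 8 cases when 1 library was left out. The enzymes between them, such as *Gapdh* (-0.029), *Ldha* (-0.047), *Pkm* (-0.037) and *Pgk1* (-0.033), did not pass. Of 18 glucocorticoid-responsive genes *Fkbp5* (-0.79), *Sgk1* (-0.99) and *Nfkbia* fell and *Pdk4* rose, whereas *Tsc22d3* (-0.27) and *Per1* did not pass. None of these 4 calls held with each library left out, and without replicate 3 at 6 h 0 of them passed in edgeR.

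Cell cycle genes of the G2 and M phases tended to negative values. Of 54 genes tested 8 fell, beside 5.33% falls over all genes, and none rose. Of the 54 fitted values 50 were negative, with a median of -0.43. In the blocked fit 24 fell, beside 14.0% of all genes. *Ccnb2*, a mitotic cyclin, measured 16.5, 23.1, 25.8 and 18.49 CPM at 6 h and 10.8, 11.9, 12.1 and 11.2 CPM at 24 h (log2 fold change -0.87 ± 0.16 SE, edgeR adjusted p = 0.0149). *Top2a*, the topoisomerase of chromosome segregation, measured 126, 143, 185 and 130.4 CPM at 6 h and 107, 93.7, 79.4 and 76.99 CPM at 24 h (log2 fold change -0.71 ± 0.16 SE, edgeR adjusted p = 0.0256). *Ube2c*, which works with the anaphase-promoting complex, measured 30.9, 43.3, 47.7 and 29.96 CPM at 6 h and 14.7, 24.03, 20.2 and 22.1 CPM at 24 h (log2 fold change -0.90 ± 0.21 SE, edgeR adjusted p = 0.0284). The times did not overlap for these genes. *Mki67*, which encodes the proliferation marker Ki-67, measured 101, 95.6, 114 and 85.6 CPM at 6 h and 93.8, 67.05, 48.3 and 57.8 CPM at 24 h, with a log2 fold change of -0.57 ± 0.20 (SE) that did not pass (edgeR adjusted p = 0.102, 0.0203 with the block). *Lbr* (-0.97), *Kif23* (-0.82), *Tubb4b* (-0.74), *Hjurp* (-0.58) and *Anp32e* (-0.41) made up the remaining calls, and with each library left out those of *Lbr*, *Tubb4b* and *Hjurp* held, while without replicate 1, 3 or 4 at both times 0 of the 8 passed in edgeR. In the blocked fit with the same omissions only the call of *Anp32e* was lost, without replicate 4. Exons of *Ube2c* overlap those of Tnnc2 on the other strand over 22.8% of their length.

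Of 43 S phase genes 1 rose and 1 fell, the latter *Usp1* (-0.78), shares below the 4.57% and 5.33% of all genes, with 3 of each in the blocked fit, below 11.8% and 14.0%, and a median of -2.1e-04, and neither call held with each library left out. *Set* beside the other doses, the G2 and M list had a median of -0.12 with 3 falls in mock-irradiated cells and of -0.73 with 22 falls after 2 Gy. The S phase list had medians of 0.10 and -0.44. *Top2a* had a log2 fold change of -0.15 in mock-irradiated cells, -0.71 after 0.1 Gy and -1.29 after 2 Gy, and *Mki67* had 0.19, -0.57 and -1.27. None of these genes passed the test of the difference in time change, in which the medians of the G2 and M list were -0.22 against mock-irradiated cells and 0.31 against 2 Gy.

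The letters TTTGAA, the core of the CHR element of G2 and M genes, were in 34 of 52 promoter windows of the G2 and M list (65.4%) on either strand, beside 17.9% of all windows, with 47 of the 54 genes matched. The 33 genes with the letters include the 8 that fell, and the rest of the 33 did not pass. The 250 bases before the start of *Ube2c* (chr2:164769679-164769928, plus strand) are printed with TTTGAA and CCAAT, or their reverse complements TTCAAA and ATTGG, in capitals.
Ube2c: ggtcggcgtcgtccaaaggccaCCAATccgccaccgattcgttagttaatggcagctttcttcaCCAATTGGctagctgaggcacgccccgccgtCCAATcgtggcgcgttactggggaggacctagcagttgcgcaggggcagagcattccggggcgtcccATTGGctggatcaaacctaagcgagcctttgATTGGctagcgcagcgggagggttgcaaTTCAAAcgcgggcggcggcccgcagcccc
It held 1 TTTGAA, 29 bases before the start, and 6 CCAAT boxes, of which 2 overlap.

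Genes of the DNA damage response were called at shares near those of all genes, 4.57% rises and 5.33% falls. *Cdkn1a*, the inhibitor p21 of cyclin-dependent kinases, measured 352, 618, 349 and 286 CPM at 6 h and 295, 538, 369 and 344 CPM at 24 h and had a log2 fold change of -0.054 ± 0.27 (SE) (edgeR adjusted p = 0.93), with replicate 2 the highest at both times. Of 30 p53 target genes 2 fell and none rose, with 4 falls and 3 rises in the blocked fit. *Gdf15*, a stress cytokine, measured 38.3, 66.9, 55.2 and 43.3 CPM at 6 h and 9.04, 26.1, 14.7 and 9.86 CPM at 24 h (log2 fold change -1.76 ± 0.35 SE, edgeR adjusted p = 0.0167), and *Tigar* had -0.72. The call of *Gdf15* was lost in 3 of 8 cases with 1 library left out, with an edgeR adjusted p of up to 0.0536, and that of *Tigar* held. *Bax* (0.23), *Ccng1* (0.24), *Phlda3* (0.43) and *Sesn1* (0.95) did not pass, and the median of the list was -0.025. Of 48 DNA repair genes 3 rose, among them *Xrcc1* (0.61) and *Xrcc6* (0.44), and 3 fell, *Bard1* (-0.72), *Lig4* (-0.70) and *Lig3* (-0.58), none of which held with each library left out, and the blocked fit had 4 rises and 6 falls. Of 17 senescence-associated genes 6 fell, of which *Il6*, *Ccl2*, *Cxcl1* and *Gdf15* are described above, and *Lmnb1*, which encodes lamin B1, had -0.94. Of 8 genes with an RT-qPCR assay only *Il6* passed, with 2 falls in the blocked fit, and *Tgfb1* (-0.72), *Tnf*, *Il1b*, *Cdkn2a* (0.12), *Gfap*, *Cdkn1a* and *Hprt* (-0.14) did not.

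Astrocyte genes were called at about the share of all genes. *Gfap*, the intermediate filament of astrocytes, measured 616, 773, 391 and 398 CPM at 6 h and 500.3, 529, 624 and 486 CPM at 24 h (log2 fold change -0.025 ± 0.23 (SE), edgeR adjusted p = 0.963). Of 22 astrocyte genes 2 rose and none fell, beside 4.57% rises and 5.33% falls over all genes, and the blocked fit had 2 of each. *Sox9*, a factor of the astrocyte fate, measured 109, 118, 109.9 and 164 CPM at 6 h and 206, 161, 252 and 259 CPM at 24 h (log2 fold change 0.81 ± 0.19 SE, edgeR adjusted p = 0.0311), the 24 h library 2 overlapping the 6 h library 4. *Hepacam*, an adhesion protein of astrocytes, measured 99.1, 122, 87.2 and 115 CPM at 6 h and 169, 139.5, 176 and 168 CPM at 24 h (log2 fold change 0.63 ± 0.13 SE, edgeR adjusted p = 0.0214). The calls of *Sox9* and *Hepacam* were lost in 6 and 4 of 8 cases when 1 library was left out, with edgeR adjusted p of up to 0.099 and 0.0735. *Aqp4* (0.059), *Slc1a2* (-0.16), *Slc1a3* (-0.055), *Glul* (0.11) and *Aldh1l1* (0.11) did not pass.

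Among the genes of astrocyte reactivity, 3 of 13 pan-reactive genes, 1 of 12 A1 genes and 3 of 11 A2 genes fell, and 1 A1 gene rose. Over all genes 4.57% rose and 5.33% fell, and the A1 counts were near those shares. *Cd44*, a hyaluronan receptor, measured 682, 766, 898 and 589 CPM at 6 h and 319, 338, 240.1 and 201 CPM at 24 h (log2 fold change -1.42 ± 0.20 SE, edgeR adjusted p = 0.00543), with no overlap of the times. *Cxcl10* (-1.41) and *Hspb1* fell among the pan-reactive genes, *Ptgs2*, *Emp1* (-1.08) and *Tm4sf1* (-0.72) among the A2 genes and *Fkbp5* among the A1 genes, of which *Ggta1* (0.79) rose. The blocked fit had 8 falls and 2 rises of pan-reactive genes, 2 falls and 1 rise of A1 genes and 6 falls of A2 genes, beside 14.0% falls and 11.8% rises over all genes. With each library left out only the calls of *Cd44* and *Ptgs2* held, that of *Hspb1* was lost in 7 of 8 cases and those of *Cxcl10*, *Emp1* and *Tm4sf1* in 6, and with library size alone 1 pan-reactive gene fell. *Lcn2* (-0.83), *Serpina3n* (-0.47), *Vim* (-0.078) and *C3* (-0.67) did not pass.

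Notch, TGF-beta and BMP genes were called in both directions. *Jag1*, a ligand of Notch receptors, measured 87.2, 129, 106 and 107 CPM at 6 h and 46.9, 66.7, 31.7 and 36.1 CPM at 24 h (log2 fold change -1.25 ± 0.23 SE, edgeR adjusted p = 0.0146), and of 22 Notch and progenitor genes *Notch1* (-0.57) and *Hey2* (-1.07) also fell. *Hey1*, another Notch target, measured 85.2, 98.4, 71.6 and 82.4 CPM at 6 h and 118, 129, 118 and 114 CPM at 24 h (log2 fold change 0.50 ± 0.11 SE, edgeR adjusted p = 0.0270), and *Pax6* (0.89) and *Hes6* (0.74) rose too. These 3 rises and 3 falls stood beside 4.57% rises and 5.33% falls over all genes. The blocked fit had 7 rises and 7 falls, beside 11.8% and 14.0%, and of the 6 calls that of *Pax6* held with each library left out. Of 32 genes of TGF-beta and BMP signalling 3 rose and 3 fell, beside 4.57% and 5.33% of all genes, and 5 rose and 13 fell in the blocked fit, beside 11.8% and 14.0%. *Tgfb3*, 1 of the ligands, measured 49.7, 82.3, 66.8 and 62.3 CPM at 6 h and 115, 117, 159.9 and 134 CPM at 24 h (log2 fold change 1.01 ± 0.17 SE, edgeR adjusted p = 0.0104). *Smad7*, the feedback inhibitor, measured 94.2, 117, 112 and 95.6 CPM at 6 h and 39.1, 76.5, 45.9 and 38.4 CPM at 24 h (log2 fold change -1.06 ± 0.22 SE, edgeR adjusted p = 0.0212). *Id2* (0.65) and *Id4* (0.65), targets of BMP, rose. Only the call of *Tgfb3* held with each library left out, that of *Id2* being lost in 6 of 8 cases and those of *Id4* and *Smad7* in 4, and 1 call of the list was left without replicate 4 at 24 h and 2 without replicate 3 at either time or replicate 1 at 6 h. Of 24 SRF and YAP targets 3 fell, among them *Ankrd1* (-2.03) and *Ccn1* (-0.94), and 11 fell in the blocked fit, beside 5.33% and 14.0% falls over all genes. Of 40 collagen and matrix genes 2 fell, *Fbn2* (-1.88) and *Lamc1* (-0.64), and 14 in the blocked fit, beside 5.33% and 14.0% falls over all genes. Both calls were lost in 7 of 8 cases with 1 library left out, and with library size alone the list had 0 calls in edgeR, with 5 falls at an unadjusted p under 0.05 in the TMM fit and 3 falls in DESeq2. Of 19 metalloproteinases and inhibitors *Mmp15* (0.67) rose, a call lost in 5 of 8 cases, beside 4.57% rises over all genes, while the blocked fit had 3 rises and 6 falls, beside 11.8% and 14.0%.

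Genes outside the lists were among the clearest changes. Those with the smallest adjusted p among the rises were led by *Skida1*, which measured 9.99, 9.77, 8.75 and 10.6 CPM at 6 h and 29.5, 32.8, 25.7 and 28.5 CPM at 24 h (log2 fold change 1.57 ± 0.13 SE, edgeR adjusted p = 0.00101). *Etfbkmt*, a methyltransferase of the electron transfer flavoprotein, measured 2.55, 3.12, 2.24 and 3.81 CPM at 6 h and 19.2, 13.6, 22.8 and 30.3 CPM at 24 h (log2 fold change 2.87 ± 0.28 SE, edgeR adjusted p = 0.00203). Both had every 24 h library well above every 6 h library. *Mgea5*, the enzyme that removes O-GlcNAc from proteins, rose from 69.4 ± 8.55 to 175 ± 24.8 CPM and *Slc25a12*, the mitochondrial carrier of aspartate and glutamate, from 25.4 ± 1.52 to 60.99 ± 10.2 CPM (mean ± SD, n = 4 each). *Nfia*, a factor of gliogenesis, measured 70.02, 74.4, 70.9 and 80.1 CPM at 6 h and 175, 143, 144 and 125 CPM at 24 h (log2 fold change 0.99 ± 0.12 SE, edgeR adjusted p = 0.00358). *Cd200*, a surface ligand that restrains microglia, measured 41.7, 48.2, 39.6 and 45.1 CPM at 6 h and 84.8, 81.5, 77.1 and 80.4 CPM at 24 h (log2 fold change 0.89 ± 0.10 SE, edgeR adjusted p = 0.00264). *Nr2e1*, a nuclear receptor of neural stem cells, had a log2 fold change of 0.88 ± 0.11 (SE), *Itsn1*, an endocytic scaffold, 0.95 ± 0.11 (SE), and *Palm*, a membrane-shaping protein, 1.39 ± 0.17 (SE). *Ctdsp2* (0.97), *Plscr2* (1.04), *Ints3* (0.90), *Sorbs3* (1.12), *Osbpl5* (0.80) and *Tprkb* (0.94) completed the 15, and exons of *Tprkb* overlap *Nat8f1* on the other strand over 8.93% of their length.

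The largest rises were taken among passing genes with no overlap of the times, a mean of at least 1 CPM at either time and a symbol other than that of a predicted gene. *Kcns1*, a subunit of voltage-gated potassium channels, measured 0.498, 0.280, 0.240 and 0.568 CPM at 6 h and 2.94, 1.58, 4.88 and 5.52 CPM at 24 h (log2 fold change 3.20 ± 0.47 SE, edgeR adjusted p = 0.00629). *Rec8*, a cohesin subunit best known from meiosis, rose from 2.80 ± 0.742 to 13.6 ± 5.93 CPM (mean ± SD, n = 4 each). *Hrct1* (2.56), *Cdk15* (2.47), *Ky* (2.44), *Exoc3l4* (2.30), *Ttc16* (2.30), *Myb* (2.24) and *Cstad* (2.23) followed. Exons of *Exoc3l4* overlap *Gm10425* on the other strand over 21% of their length.

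Among the falls outside the lists, *Crispld2*, a secreted protein, measured 40.4, 30, 40.8 and 30.9 CPM at 6 h and 5.05, 6.12, 4.44 and 3.71 CPM at 24 h (log2 fold change -2.88 ± 0.20 SE, edgeR adjusted p = 8.66e-04). *Kcnk3*, a leak channel for potassium, measured 5.54, 9.49, 6.63 and 6.25 CPM at 6 h and 0.526, 1.00, 0.542 and 0.489 CPM at 24 h (log2 fold change -3.43 ± 0.31 SE, edgeR adjusted p = 0.00167). *Relt*, a receptor of the TNF receptor family, measured 60.4, 51.5, 67.7 and 51.8 CPM at 6 h and 10.5, 15.97, 15.9 and 11.1 CPM at 24 h (log2 fold change -2.11 ± 0.18 SE, edgeR adjusted p = 0.00128). In each of them the lowest 6 h library exceeded the highest 24 h library several-fold. *Nptx1*, a pentraxin of synapses, measured 49.3, 42.7, 32.6 and 22.5 CPM at 6 h and 2.37, 4.33, 1.88 and 1.12 CPM at 24 h (log2 fold change -3.92 ± 0.43 SE, edgeR adjusted p = 0.00242). *Alkbh1*, a demethylase, had a log2 fold change of -1.48 ± 0.13 (SE) and *Rdh11*, a retinol dehydrogenase, -1.27 ± 0.12 (SE). *Gjb2*, which encodes a connexin, fell from 10.96 ± 10.5 to 1.03 ± 0.573 CPM, *Wnt11*, a ligand of the Wnt family, from 4.11 ± 1.64 to 0.384 ± 0.436 CPM and *Nmrk2*, a nicotinamide riboside kinase, from 1.33 ± 0.518 to 0.0833 ± 0.0775 CPM (mean ± SD, n = 4 each). Exons of *Mir22hg* share 10.7% of their length with *Tlcd2*. All 30 genes with the smallest adjusted p in their direction passed with each library left out in turn, as did 16 of the 20 with the largest fold changes, the exceptions being *Gjb2*, *Wnt11*, *Ky* and *Myb*. Both sets were chosen from these same libraries, so this is no independent support. Of the 30, *Nfia*, *Itsn1*, *Nr2e1*, *Sorbs3* and *Osbpl5* were lost without replicate 3 at both times. Of the 20, only *Etfbkmt*, *Il11*, *Nptx1*, *Nr4a3* and *Kcnk3* passed with any 1 replicate number left out at both times. Long noncoding RNAs had 5 falls of 21, among them *Neat1*, the RNA of paraspeckles, which measured 828, 740, 675 and 679.7 CPM at 6 h and 167, 281, 347 and 391 CPM at 24 h (log2 fold change -1.30 ± 0.24 SE, edgeR adjusted p = 0.0136), and *Mir22hg* (-1.31) and *Snhg17* (-1.17), while *Malat1* (-0.31) and *Meg3* (-0.10) did not pass. Over all genes 5.33% fell, and the blocked fit had 7 falls of the list beside 14.0%. With each library left out 3 of the 5 calls held, those of *Neat1*, *Mir22hg* and *Snhg17*. Without replicate 1, 3 or 4 at both times 1 passed in edgeR, while in the blocked fit all 5 passed. With the GC and length correction *Neat1* had an edgeR adjusted p of 0.0572 and the list 4 falls.

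**Figure D5:**
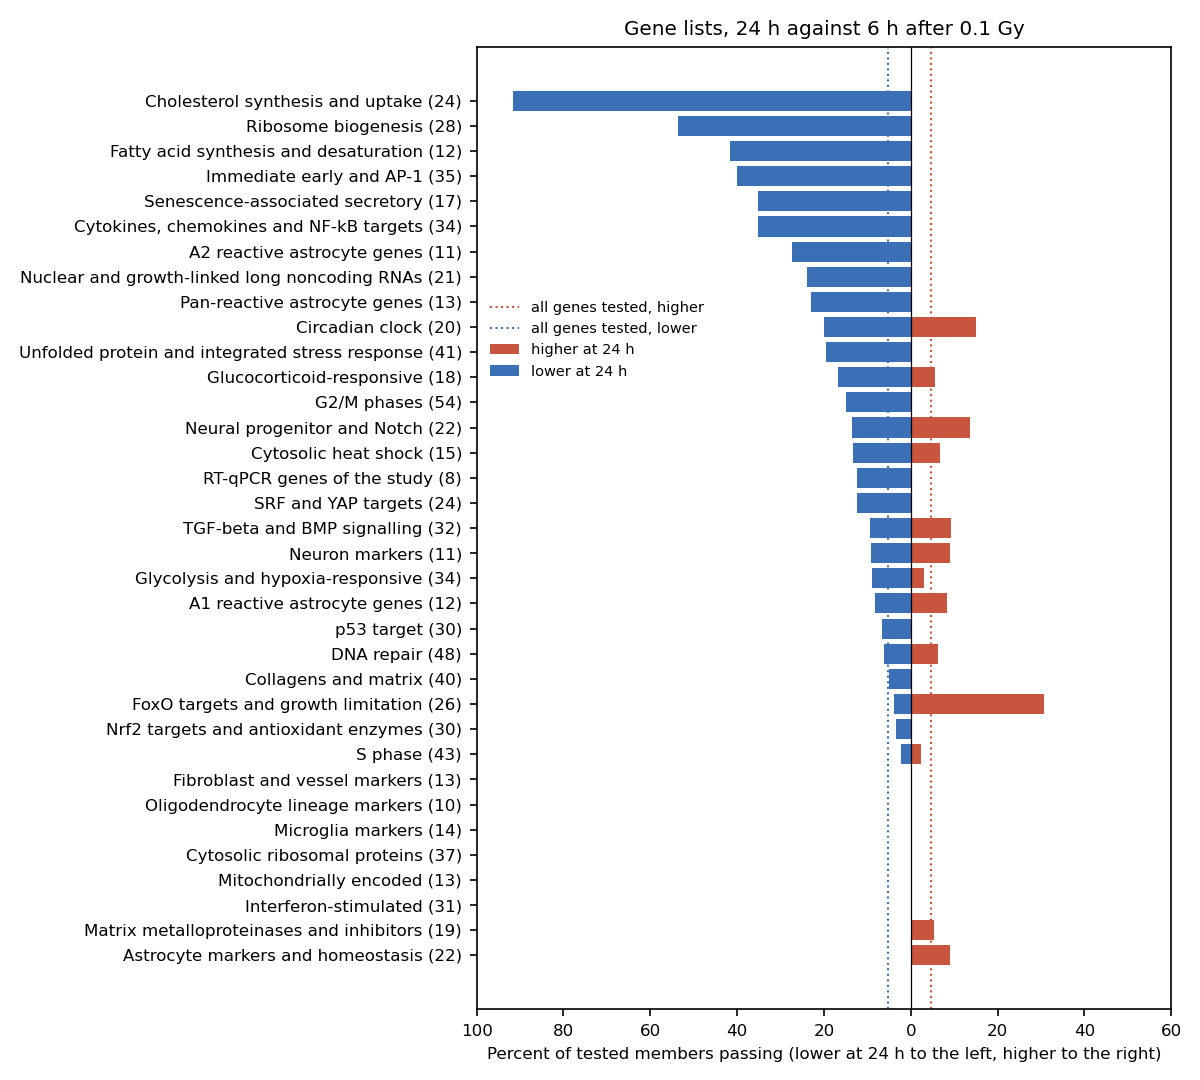
Percent of the tested members of each list (y axis, number tested in brackets) that passed at an adjusted p under 0.05, lower at 24 h to the left and higher at 24 h to the right, with the shares of all genes tested as dotted lines. The bars of cholesterol synthesis (22 of 24), ribosome biogenesis (15 of 28) and fatty acid synthesis (5 of 12) reach farthest to the left and that of FoxO targets (8 of 26) farthest to the right.

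The difference between the time change after 0.1 Gy and that in mock-irradiated cells was tested in the 16 libraries of both doses, and 0 of 17040 genes (0%) passed in edgeR. At an unadjusted p under 0.05 were 431 genes, the smallest adjusted p was 0.923, and the fit with a replicate block gave 0 passing genes (0%), 1656 unadjusted and a smallest adjusted p of 0.475. DESeq2 also gave 0, with 571 unadjusted. Against 2 Gy 0 of 17067 genes (0%) passed with 86 unadjusted, 0 (0%) with the block and 244 unadjusted, and 0 in DESeq2 with 145 unadjusted. A difference that misses the threshold does not show that the time courses are alike, and each dose is fitted here on its own 8 libraries. The genes with the smallest p against mock-irradiated cells that had a higher time change after 0.1 Gy included *Mpc2*, a mitochondrial pyruvate carrier, with a log2 fold change of 0.34 after 0.1 Gy and -0.37 in mock-irradiated cells, *Polr2f*, a subunit of RNA polymerases, with 0.35 and -0.57, and *Atp5mpl*, of the ATP synthase, with 0.28 and -0.32. In the other direction they included *Rmrp*, with -0.30 and 1.68. Against 2 Gy they included *Melk*, a mitotic kinase, with -0.44 after 0.1 Gy and -1.24 after 2 Gy, *Exo1*, an exonuclease of repair, with 0.23 and -0.82, and *Ercc6l*, a mitotic helicase, with -0.42 and -1.17.

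The makeup of the libraries was compared by summed levels. The summed CPM of 13 mitochondrially encoded genes was 14480, 26170, 36130 and 21400 at 6 h and 14980, 24790, 21540 and 20530 at 24 h, which overlap widely, with a log2 ratio of -0.26 (2-sided exact permutation test, p = 0.457). The median time change of these genes was -0.19 after 0.1 Gy, 0.59 in mock-irradiated cells and -0.85 after 2 Gy, with 0 genes passing at any dose in edgeR, 0 after 0.1 Gy in DESeq2 or voom or at an unadjusted p under 0.05, and 1 fall in the blocked fit. The median of the difference was -0.79 against mock-irradiated cells and 0.58 against 2 Gy, with 0 genes passing. These medians rest in part on low levels. *mt-Atp8*, *mt-Nd4l*, *mt-Atp6*, *mt-Co3*, *mt-Co2* and *mt-Nd3* had means of 1.4 to 6.5 CPM at 6 h after 0.1 Gy, beside 10250 for *mt-Co1*. Summed levels of 24 astrocyte markers ranged from 8091 to 12550 CPM at 6 h and from 6889 to 12300 CPM at 24 h (exact permutation p = 0.914). None of the 7 summed levels passed the exact permutation test, whose smallest p with 4 against 4 libraries is 0.029, and the lowest was 0.257, for the oligodendrocyte lineage. That test is unpaired, and within replicate numbers the oligodendrocyte lineage sum was higher at 24 h in 4 of 4 pairs, going from 514.6 to 682.3, from 865.7 to 922.3, from 438.3 to 762 and from 481.7 to 580.8 CPM. *Olig1* was its largest member, with means of 258.9 CPM at 6 h and 420.8 CPM at 24 h, while *Cspg4* went from 79.03 to 29.51 CPM. Of the fitted values of this list 5 were positive and 5 negative. Of 14 microglia, 10 oligodendrocyte lineage and 13 fibroblast and vessel markers tested as single genes 0 passed in edgeR or voom, DESeq2 called 1 fall in the oligodendrocyte lineage, and 2 of its genes and none of the others had an unadjusted p under 0.05. Of 11 neuron markers *Syt1* (0.88) rose and *Gad1* (-1.69) fell, beside 4.57% rises and 5.33% falls over all genes. The blocked fit had 1 rise and 3 falls of neuron markers, beside 11.8% and 14.0%. The call of *Syt1* was lost in 6 of 8 cases with 1 library left out while that of *Gad1* held in all 8. The blocked fit had 1 fall of a microglia marker, 2 rises and 1 fall of oligodendrocyte lineage markers and 2 falls of fibroblast and vessel markers. The part of these cell types in the changes above was not tested.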

How the data were processed

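Poly(A)-selected RNA of 24 astrocyte cultures was sequenced, 4 per dose and time, and the 8 cultures given 0.1 Gy are the subject here. The authors deposited 1 table of raw gene counts per library, aligned to mm10 per the labels; the aligner, the counter and the use of strand are not given in the sources used here. Each table lists 49315 genes, of which 49056 are in GENCODE M21 and 48970 have a symbol there. Replicates are new isolations, so p-values measure the spread between isolations, and time after exposure cannot be told apart from time in culture.

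Genes were kept with filterByExpr, scaled by TMM and tested for 24 h against 6 h by the quasi-likelihood test of edgeR 4.0.16 in R 4.3.3, with Benjamini-Hochberg adjustment over all genes tested. Time changes at 2 doses were compared by an interaction term over 16 libraries. Libraries of 1 replicate number correlated in their deviations from the mean of their time (r = 0.385, 0.845, 0.388 and 0.667), so the number was taken to pair them, although replicate 3 at 24 h correlated slightly more with replicate 4 at 6 h (0.408) than with its own number, and the main fit has no block. DESeq2 1.42.0, limma 3.58.1 (voom), other scalings and filters, a GC and length correction, the replicate block and left-out libraries were alternatives. Figures and tables were made with Python 3.11.15, and the scripts were tested on simulated data.

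Named genes are the 15 per direction with the smallest adjusted p and the 10 with the largest fold change among passing genes without overlap, both with a mean of at least 1 CPM and no predicted genes, the 5 per direction with the smallest p in each interaction, genes the paper names, and members of 35 gene lists. Members and lists were chosen with earlier results of these data known. A few such genes are not reported here. Totals of 19437584 to 37039966 counts per library cover counting error only, and replicate spread set the precision.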

Additional observations from a re-analysis of the deposited data

Results flagged for a closer look

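In 174 groups of 4 libraries tested, 9 had 1 library far from the other 3, measured as its gap to the nearest library over the whole range and set against Dixon's 95% critical value. Chance flags about 1 in 20 groups, which is near the number found. For Mvd the 24 h library 1 was low (9.52 CPM beside 14.4 to 14.9, ratio 0.913). For Il11 the 6 h library 3 was high (124 CPM beside 39.7 to 46.3, ratio 0.922), and for Cxcl1 the 6 h library 1 (2.81 CPM beside 1.45 to 1.64, ratio 0.861). For Dbp the 24 h library 4 was high (72.0 CPM beside 56.0 to 57.8, ratio 0.889) and for Sox9 the 6 h library 4 (164 CPM beside 109 to 118, ratio 0.838). Library 2 at 24 h was high for Kcnk3 (1.00 CPM, ratio 0.898) and for Vegfa (87.5 CPM beside 41.9 to 45.3, ratio 0.926). The summed level of microglia markers was low in library 2 at 24 h (385.4 CPM beside 2620 to 3053, ratio 0.838). That of neuron markers was high in library 2 at 6 h (757.3 CPM beside 501.5 to 525.2, ratio 0.907).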

How the results depend on the processing

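The count of 1609 calls between 24 h and 6 h became 2579 in DESeq2, 319 at an adjusted p under 0.01 and 624 when changes under 2-fold were set aside. The replicate block gave 4181 calls in edgeR and 4287 in DESeq2, 5863 together with a GC and length correction and 5142 in a fit of all 24 libraries. With the block and without replicate 1, 2 or 3 there were 3875, 3039 and 3232 calls, and 2182 without replicate 4. With 1 library left out and no block the calls ranged from 534 to 1890. With 1 replicate number left out at both times, an alternative chosen after seeing the data, they ranged from 85 (without replicate 3) to 2386 (without replicate 2). Voom (1758), DESeq2 size factors (1626), library size alone (1688), no filter (1228), at least 10 counts in every library (1621), all 24 libraries without a block (2150) and the GC and length correction (2258) stayed within 1.5 times of the main count. The share of rises among the calls, 46.2% in the main fit, was 61.3% with library size alone, 53.3% with the GC and length correction, 51.3% with all 24 libraries and 54.2% without replicate 2 at 6 h, so the balance of rises and falls depends on the setting. No gene called in the main fit and followed through the alternatives changed sign, while *Gfap* and *Cdkn1a*, which did not pass, did. The interaction counts were 0 under every alternative run for them. These were DESeq2, the block, all 24 libraries, library size alone, each library left out and replicate 2 left out at both times. The genes at an unadjusted p under 0.05 against mock-irradiated cells ranged from 166 to 2882, the latter without replicate 3 of the mock-irradiated 24 h group. The cause of these shifts was not tested. Limits are the 4 libraries per group, the shared deviation of replicate 2, the overlap of some exons and the confounding of time after exposure with time in culture.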
